A study of Mus musculus with 20 samples.

Results

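The core circadian clock genes of the mouse liver were examined as 10 genes: Arntl, Clock, Npas2, Nr1d1, Nr1d2, Per1, Per2, Per3, Cry1 and Cry2. Members were all probe sets whose platform annotation gives exactly 1 symbol that is one of these names, which yielded 23 of the 34945 probe sets with a single symbol, and 10 of the 18193 genes so named. All 10 genes had at least 1 probe set and 6 had several. The livers came from 10 male C57BL/6J mice whose high-fat feed drew 45% of its energy from fat and 10 whose low-fat feed drew 10%, 1 array per mouse. All 20 mice, an inbred strain 8 weeks old per the labels, had eaten the low-fat diet for 1 week, then their own diet for 4 weeks, and were killed on day 30 after a fast of 16 h. Lights were on from 8 to 20 o'clock, and no hour of killing is stated in the labels used here.

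The molecular clock is a feedback loop that runs in nearly every cell. The proteins of Arntl (BMAL1) and of Clock or its relative Npas2 pair up and switch on genes with an E-box, among them the Per, Cry and Nr1d genes. PER and CRY proteins then block that pair, while the nuclear receptors NR1D1 and NR1D2 (REV-ERB alpha and beta) repress Arntl, Npas2, Clock and Cry1. In mouse liver over the day, Arntl and Npas2 therefore run opposite in phase to Nr1d1, Nr1d2, Per3 and the output gene Dbp, and feeding and fasting times shift the liver clock.

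The 3 DNA elements of the loop are shown for the members that hold them, since Arntl, Cry1 and Per3 lead the correlations between mice and Per1 stands apart from them. The promoter windows, 250 bases before to 50 after each start in RefSeq's GRCm38.p6 table, were searched on both strands for the E-box CACGTG, for the D-box TTATGTAA or TTACGTAA, which Dbp and its relatives bind, and for the core of the element bound by the REV-ERB and ROR receptors, TAGGTCA or TGGGTCA. Of the 10 genes, 9 had a window, 13 windows in all, and Per2 had no entry. An E-box stood in the windows of Cry1 and Per1, the D-box in that of Per3 and the receptor core in that of Arntl. Over all 32851 windows, 7.15% held the E-box, 1.06% a D-box and 6.45% a receptor core. A match describes letters and is not evidence of binding. Each stretch is written 5′ to 3′ on the gene's own strand, with the matched letters in capitals.
Per3, minus strand, chr4:151044776-151044910: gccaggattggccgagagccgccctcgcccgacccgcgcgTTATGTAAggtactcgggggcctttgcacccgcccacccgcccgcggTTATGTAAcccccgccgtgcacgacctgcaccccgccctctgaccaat
Cry1, minus strand, chr10:85185069-85185154: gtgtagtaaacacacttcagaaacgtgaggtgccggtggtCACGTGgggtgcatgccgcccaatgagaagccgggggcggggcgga
Per1, plus strand, chr11:69098743-69098828: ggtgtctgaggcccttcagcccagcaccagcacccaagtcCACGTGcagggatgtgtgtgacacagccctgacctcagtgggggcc
Arntl, plus strand, chr7:113207530-113207559: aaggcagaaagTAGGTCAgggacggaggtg
Per3 held 2 copies of the same D-box, the first bases 205 and 158 bases before the start of the window's transcript. The Cry1 E-box began 60 bases before the start, that of Per1 166 bases before it, and the Arntl core began at base 31 after it. For Per3, Per1 and Arntl that start is the one of 1 annotated transcript and lies inside the gene's full span.

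Array medians of the deposited scores ran from 6.56702 to 6.5672, and 0 pairs of arrays held identical values. The liver label was checked against 8 named hepatocyte markers, whose median score was 14.06 against 6.57 over all probe sets. Of marker lists for other cells, 1 probe set of the pericyte gene Rgs5 and that of the pancreas gene Cela1 were higher in high-fat mice and that of the muscle gene Mylpf was lower (limma, adjusted p = 0.0101, 0.0349 and 0.0273). The hepatocyte gene Ttr was lower at all 4 of its probe sets, and 2 of them passed. Members of the same lists went the other way without passing. The hepatocyte gene Apoa1 was higher at its 4 probe sets and the muscle gene Acta1 was higher. The pancreas gene Prss2 and the stellate gene Des were lower at 1 probe set each (1417682_a_at and 1426731_at). Other probe sets of Prss2 and Des were higher, as were those of Rgs5, and none of these passed. Summed over each marker list, mean values per mouse overlapped between diets. Whether such cells contributed to any clock value was not tested, and in whole liver fewer cells of a type and less RNA per cell cannot be told apart.

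The first comparison asked whether the level of any clock gene differed between the diets. Deposited scores are compressed, so that differences are not fold changes. Values per mouse are therefore given in SD units, in which the low-fat mean is 0 and 1 unit is the pooled SD within diets. The size of a diet difference is the standardised difference, high-fat minus low-fat, with a 95% interval. No clock probe set passed the threshold: by limma across 45037 probe sets with Benjamini-Hochberg adjustment, 0 of 23 had an adjusted p below 0.05, and the smallest was 0.0806. Over all probe sets 1043 passed, 2.32% of those tested. At an unadjusted p below 0.05 there were 4 of 23 clock probe sets (Npas2, Clock, Cry1 and Nr1d2, 1 each), while 15.1% of all probe sets reached it, and the exact Wilcoxon rank sum test also called 0 of 23. The smallest standardised difference that passed anywhere on the array was 1.68 in size, and no smaller difference was called for any gene. Among the 23, 11 were higher and 12 lower in high-fat mice. Their median standardised difference was −0.07 and the median size 0.513, against 0.04 and 0.422 over all probe sets. The diets overlapped in every one of the 10 representative probe sets. Quantile normalisation moved the median standardised difference of all probe sets to −0.41 and called 4147 of 42357. Centring of array medians moved it to −1.29 and called 38616 of 45037. Under the second, Npas2, Nr1d1, Cry1 and Cry2 passed, the last 3 with differences of −1.32, −1.33 and −1.24, close to that shift of the whole array.

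Of the activators, Npas2 had the largest difference among the 23. Npas2 (probe set 1421037_at, chromosome 1) encodes the partner of BMAL1 that can stand in for CLOCK. It ran from −3.27 through a median of −1.62 to 0.58 SD units in high-fat mice and from −0.86 through −0.36 to 1.64 in low-fat mice. Of the 10 high-fat mice, 7 lay below every low-fat mouse, yet high-fat mouse 8 lay within the low-fat range. The standardised difference was −1.49 (95% interval −2.48 to −0.48, adjusted p = 0.0806 by limma). Without high-fat mouse 8 the adjusted p was 0.0298 and the difference −1.96, the 1 call in the 20 fits without 1 mouse. Npas2 passed under each of the 3 other array scalings (−1.73 with quantile normalisation, −1.93 with array medians centred and −1.52 with standardised values centred, adjusted p = 0.0221, 0.0102 and 0.0184). Quantile normalisation and median centring also lowered the median of all probe sets, to −0.41 and −1.29. Npas2 did not pass by limma with array weights, with replicate number as a block or for the mean of its probe sets (adjusted p = 0.119, 0.132 and 0.105). Nor did it pass by the Wilcoxon rank sum test (adjusted p = 0.118). The other Npas2 probe set, 1421036_at, gave −0.60 (−1.49 to 0.30). Both probe sets scored low. The mean score was 6.27 for 1421037_at and 6.11 for 1421036_at, against a median of 6.57 over all probe sets. Of all probe sets, 34.1% and 24.6% lay below them.

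Arntl (1425099_a_at, chromosome 7), the gene of the partner that every activator complex needs, ran from −2.78 through −0.38 to 0.72 SD units in high-fat mice and from −1.02 through −0.02 to 1.34 in low-fat mice. The lower end was held by high-fat animals, 4 of which lay below all low-fat mice. The standardised difference was −0.74 (−1.64 to 0.18, adjusted p = 0.456). Its second probe set, 1457740_at, gave −0.10 (−0.98 to 0.78) and did not follow the first across mice (r = −0.26 in high-fat and 0.11 in low-fat mice, as a description of probe sets).

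Clock (chromosome 5) encodes the usual partner of BMAL1, and its 4 probe sets did not give a single answer. Its brightest, 1418659_at, ran from −2.05 through 0.29 to 1.02 SD units in high-fat mice and from −2.46 through 0.27 to 1.06 in low-fat mice, a difference of 0.05 (−0.83 to 0.92) whose sign turned under quantile normalisation (−0.74) and median centring (−0.63). The other 3 gave −0.90 for 1418660_at, −0.55 for 1435775_at and −1.25 for 1439314_at. The interval of the last of these ran from −2.21 to −0.27 and its adjusted p was 0.153. In high-fat mice 1418659_at varied with 1418660_at (r = 0.80) and 1435775_at (0.82), and in low-fat mice it did not (−0.16 and −0.32).

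Among the repressors of Arntl, Nr1d2 and Nr1d1 had differences of opposite sign, and neither passed. Nr1d2 (1416958_at, chromosome 14) ran from −0.76 through 1.43 to 2.97 SD units in high-fat mice and from −0.87 through 0.13 to 1.01 in low-fat mice. The high-fat animals spanned the wider range, and 6 of them lay above all low-fat mice. The standardised difference was 1.02 (0.07 to 1.94, adjusted p = 0.268), and its second probe set, 1416959_at, gave 0.80 (−0.13 to 1.70). Nr1d1 (1426464_at, chromosome 11) ran from −1.96 through −0.50 to 0.01 SD units in high-fat mice and from −0.89 through −0.38 to 3.16 in low-fat mice. Its highest value belonged to 1 animal, low-fat mouse 8, with the next low-fat mouse at 0.63. The standardised difference was −0.72 (−1.62 to 0.19, adjusted p = 0.468).

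The Period genes encode the PER proteins of the repressive arm, with PER1 and PER2 the essential members. Per1 (1449851_at, chromosome 11), which glucocorticoids also induce, ran from −2.66 through 0.59 to 1.59 SD units in high-fat mice and from −1.23 through 0.28 to 0.56 in low-fat mice. High-fat animals lay on both sides of the low-fat range, 5 above and 2 below it, and the difference was 0.14 (−0.74 to 1.02, adjusted p = 0.919). Per2 (1457350_at, chromosome 1) ran from −1.21 through 0.22 to 2.41 SD units in high-fat mice and from −1.66 through −0.22 to 1.48 in low-fat mice, a difference of 0.23 (−0.65 to 1.11, adjusted p = 0.858). Its other probe sets gave 0.29 and 0.40. All 3 Per2 values were thus positive and smaller than 1 SD, and that of 1457350_at turned to −0.08 under quantile normalisation and −0.41 with array medians centred.

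Per3 (chromosome 4) had 6 probe sets. The brightest, 1421087_at, ran from −0.84 through 0.59 to 2.91 SD units in high-fat mice and from −0.71 through −0.32 to 1.24 in low-fat mice, and 4 high-fat mice lay above all low-fat mice. Its standardised difference was 0.83 (−0.10 to 1.73, adjusted p = 0.390), and 1.45 (adjusted p = 0.0429) under quantile normalisation. The other 5 ranged from −0.51 for 1421086_at to 0.51 for 1441445_at, and 1442243_at was also negative at −0.41. In high-fat mice the brightest probe set varied with the other 5 at r between 0.64 and 0.90, in low-fat mice at r between −0.13 and 0.58.

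The cryptochromes encode potent repressors of the activator pair. Cry1 (1433733_a_at, chromosome 10) ran from −2.40 through −0.87 to 0.25 SD units in high-fat mice and from −2.09 through 0.01 to 0.95 in low-fat mice. High-fat mice 2, 5, 7 and 10 lay close together between −2.40 and −2.26, below all low-fat mice, with the next high-fat mouse at −1.16. The standardised difference was −1.16 (−2.10 to −0.20, adjusted p = 0.192), and it was −2.65 (adjusted p = 0.0019) under quantile normalisation. Cry2 (1426383_at, chromosome 2) ran from −1.60 through −0.13 to 1.18 SD units in high-fat mice and from −2.26 through 0.12 to 1.70 in low-fat mice, and its difference was −0.07 (−0.95 to 0.80, adjusted p = 0.963). Under quantile normalisation its sign turned, to 0.71. The 2 genes thus had differences of the same sign and unequal size, which were not tested against each other.

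**Figure D1:**
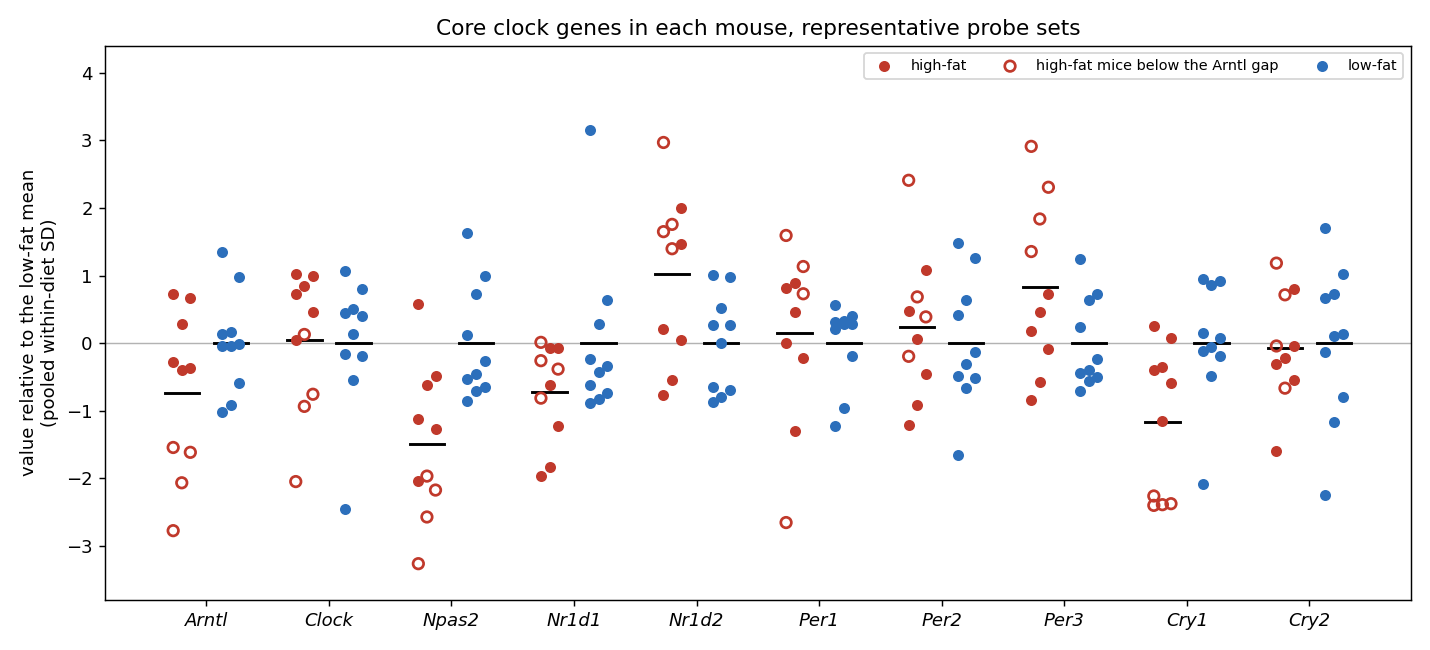
Value of the representative probe set of each core clock gene in every mouse, in pooled within-diet SDs from the low-fat mean (y axis), with high-fat mice in red left of low-fat mice in blue and black bars at the means (n = 10 per diet). Open red circles are high-fat mice 2, 5, 7 and 10, which lie lowest for Arntl and Cry1 and highest for Per3.

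**Figure D2:**
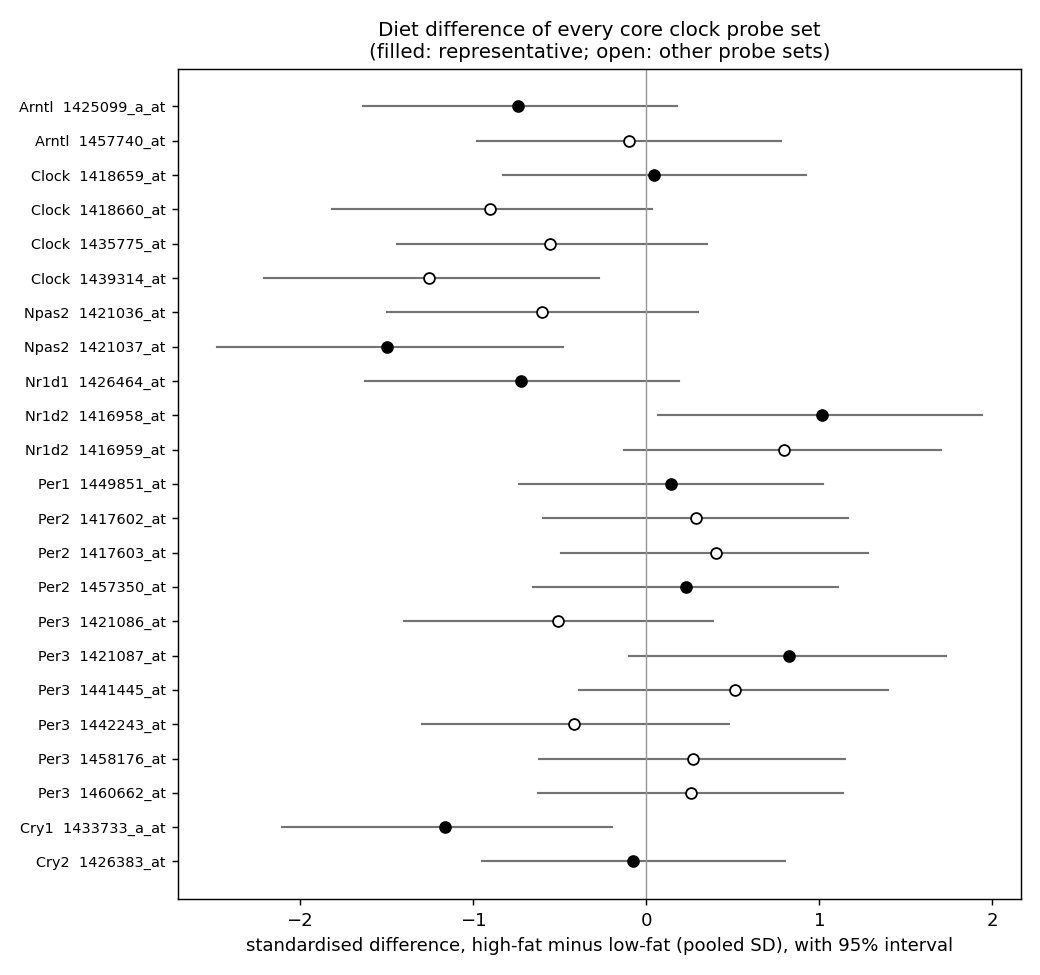
Standardised difference, high-fat minus low-fat, of all 23 core clock probe sets (x axis, pooled SD) with 95% intervals as lines; filled circles are the representative probe sets and open circles the others. The difference farthest from 0 is that of Npas2 1421037_at at −1.49, and no probe set passed the adjusted threshold.

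Spread between mice was wider on the high-fat diet for the representative probe sets of 8 of the 10 genes. The ratio of the SD in high-fat to that in low-fat mice had a median of 1.29 over the representative probe sets, the brightest of each gene, against 0.994 over all probe sets, of which 49.4% were above 1. It was 2.09 for Per1, 1.86 for Per3, 1.69 for Nr1d2 and 1.61 for Arntl, but 1.10 for Per2 and 1.02 for Clock. The exceptions were Nr1d1 at 0.600, where low-fat mouse 8 stood far out, and Cry2 at 0.704. These ratios describe the samples and were not tested.

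The second comparison asked how the clock genes vary together within each diet. In high-fat mice Arntl varied in the same direction as Npas2 and Cry1 and opposite to Per3, and Npas2 varied opposite to Nr1d2. In low-fat mice no pair passed. Pearson correlations of the 45 gene pairs were computed over the 10 mice of each diet with a two-sided permutation test of 100000 resamples, adjusted over the 90 values. In high-fat mice 7 pairs passed an adjusted p of 0.05, of which 3 were positive and 4 negative. In low-fat mice 0 passed and 2 had an unadjusted p below 0.05, against 18 in high-fat mice. By Spearman's rho 5 pairs passed in high-fat mice and 0 in low-fat mice. With the probe set of largest SD for each gene, 3 pairs passed in high-fat mice. That setting changed the probe set of Per2 and Per3 alone, so pairs without these genes kept their r and were not checked by it. In high-fat mice 0 pairs passed under quantile normalisation and 0 when each gene's probe sets were averaged.

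The median size of r was 0.572 among the clock pairs in high-fat mice and 0.348 in low-fat mice, while over all pairs of the 18193 genes it was 0.266 and 0.285. An r of 0.8 or more in size was found in 10 of 45 clock pairs in high-fat mice, against 0.996% of all gene pairs, and in 0 of 45 in low-fat mice, against 1.47% of all gene pairs. Gene pairs share mice and arrays and are not independent.

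Arntl and Cry1 had the highest positive r of the called pairs. In high-fat mice r was 0.92 (rho = 0.88, adjusted permutation p = 0.0150 for r and 0.0299 for rho) and in low-fat mice 0.12 (rho = 0.12, adjusted permutation p = 0.815 and 0.862). Without the 2 mice farthest from the median of Arntl, r over the remaining 8 high-fat mice was 0.92 (exact permutation p = 0.0039, unadjusted). Arntl and Per3 ran opposite in high-fat mice, with r = −0.93 (rho = −0.88, adjusted permutation p = 0.0150 and 0.0299), and in low-fat mice r was 0.59 (rho = 0.61, adjusted permutation p = 0.236 and 0.289). Without the 2 farthest high-fat mice, r was −0.83 (exact permutation p = 0.0116).

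Arntl and Npas2, the genes of 2 proteins that pair with each other, varied together in high-fat mice, with r = 0.88 (rho = 0.92, adjusted permutation p = 0.0191 and 0.0180), and low-fat mice gave r = 0.61 (rho = 0.52, adjusted permutation p = 0.219 and 0.355). Without the 2 farthest high-fat mice, r was 0.82 (exact permutation p = 0.0126). Npas2 ran opposite to the repressor gene Nr1d2 in high-fat mice, at r = −0.90 (rho = −0.79, adjusted permutation p = 0.0150 and 0.0978), and at −0.41 in low-fat mice (rho = −0.52, adjusted permutation p = 0.452 and 0.355). Without 2 mice it was −0.80 (exact permutation p = 0.0250). The rank measure of this pair did not pass.

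The other called pairs in high-fat mice were Per2 with Cry2, Per3 with Cry1 and Clock with Per3. Per2 and Cry2 had r = 0.86 (rho = 0.88, adjusted permutation p = 0.0295 and 0.0299) in high-fat mice and −0.48 (rho = −0.33, adjusted permutation p = 0.394 and 0.542) in low-fat mice. Per3 and Cry1 had r = −0.86 (rho = −0.82, adjusted permutation p = 0.0306 and 0.0860) in high-fat mice and 0.43 (rho = 0.55, adjusted permutation p = 0.433 and 0.314) in low-fat mice. Clock and Per3 had r = −0.83 (rho = −0.72, adjusted permutation p = 0.0306 and 0.165) in high-fat mice and −0.65 (rho = −0.41, adjusted permutation p = 0.180 and 0.499) in low-fat mice. Without 2 mice these were 0.69, −0.80 and −0.73 in high-fat mice (exact permutation p = 0.0576, 0.0194 and 0.0374, unadjusted), so that the first no longer reached 0.05. Under quantile normalisation Per2 with Cry2 had r = 0.04. Over the 10 fits without 1 high-fat mouse, the call of Per2 with Cry2 was kept in 5 and those of Per3 with Cry1 and Clock with Per3 in 2 each.

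Per1, whose window holds an E-box as that of Cry1 does, had r = −0.11 with Arntl in high-fat mice (rho = −0.36, adjusted permutation p = 0.834 and 0.536). Its closest partner in high-fat mice was Cry2, at r = 0.78 (rho = 0.95, adjusted permutation p = 0.0548 and 0.0099), a pair that passed by rank alone. In low-fat mice that r was −0.26 (rho = −0.39, adjusted permutation p = 0.627 and 0.503). The low-fat pair nearest to the threshold was Arntl with Cry2, at r = 0.79 (rho = 0.78, adjusted permutation p = 0.0548 and 0.105).

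**Figure D3:**
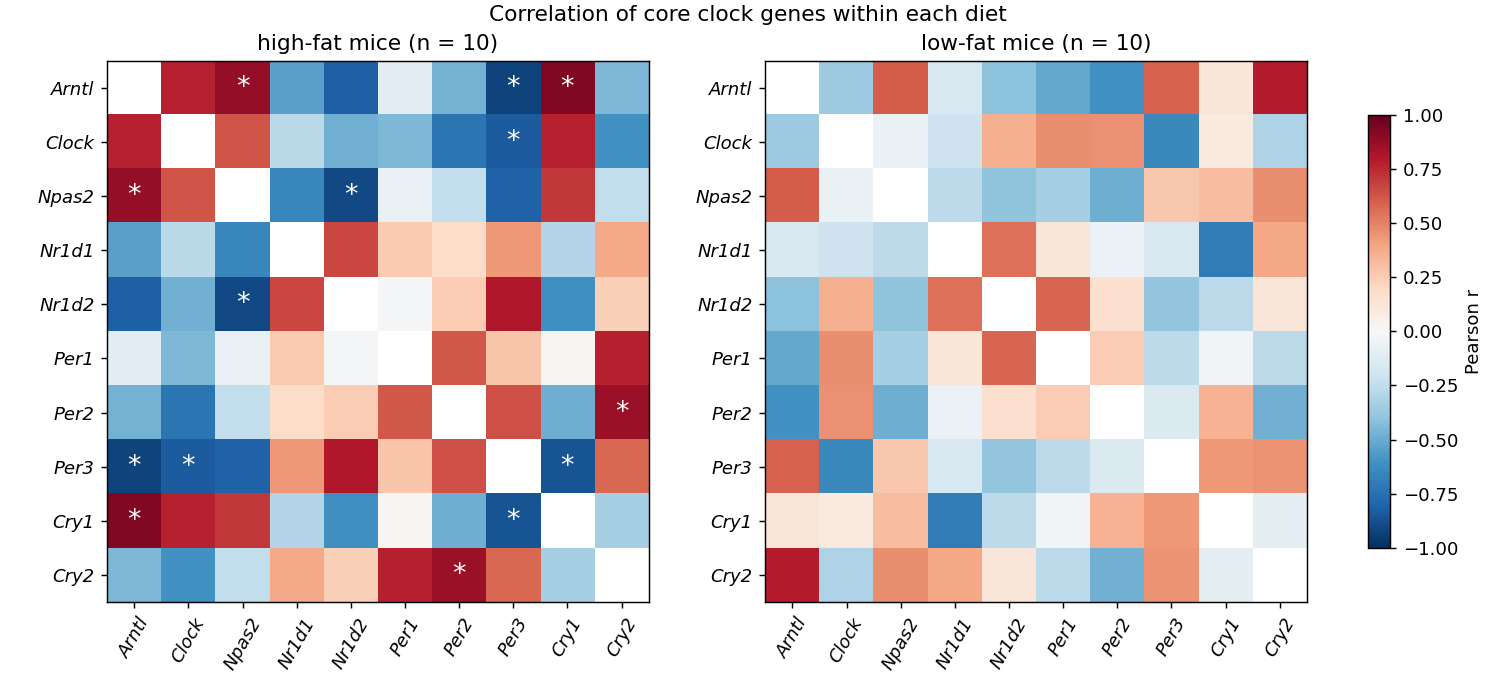
Pearson r of every pair of core clock genes (representative probe sets) over 10 high-fat mice, left, and 10 low-fat mice, right; red is positive, blue negative, and stars mark adjusted permutation p below 0.05. The left panel has 7 starred pairs, each drawn on both sides of the diagonal, and the right panel has 0.

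In the high-fat group 4 animals held one end of this pattern. In Arntl the widest gap between neighbouring high-fat mice, 1.15 SD units or 32.8% of the range, set mice 2, 5, 7 and 10 (−2.78 to −1.55) below the other 6 (−0.40 to 0.72). The same 4 mice lay below the widest gap in Cry1, had Per3 between 1.36 and 2.91 where the other 6 lay between −0.84 and 0.72, and had Nr1d2 between 1.40 and 2.97 where the others lay between −0.76 and 2.00. For Per1 the 4 mice ran from −2.66 to 1.59 and held both its lowest and its highest value. No difference between these 4 and the other mice was tested, since the split was made on the values.

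Within the 6 upper high-fat mice, r is given as a description with no test, since choosing them by Arntl narrowed its range and with it the correlations it could show. It was 0.66 for Arntl with Npas2, 0.62 for Arntl with Cry1 and −0.41 for Arntl with Per3. For Npas2 with Nr1d2 it was −0.84 and for Per2 with Cry2 0.86, against −0.21 for Per3 with Cry1 and −0.19 for Clock with Per3, whose rho turned to 0.14. Leaving out 1 animal at a time changed the count of 7 called pairs to 4 without high-fat mouse 2, 2 without mouse 8 and 0 without mouse 10, and to between 5 and 9 without any other. The calls of Arntl with Cry1 and Arntl with Per3 were kept in 9 of the 10 fits, and those of Arntl with Npas2 and Npas2 with Nr1d2 in 8. Without mouse 10 the r of Arntl and Cry1 was 0.94 with an adjusted exact permutation p of 0.0521 at n = 9.

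Whether a correlation differed between the diets was tested for all 45 pairs by permuting the diet labels of the mice on values centred and scaled within each diet. After adjustment 2 pairs passed: Arntl with Cry1 (0.92 in high-fat and 0.12 in low-fat mice, adjusted permutation p = 0.0257) and Per3 with Cry1 (−0.86 and 0.43, adjusted permutation p = 0.0475). Arntl with Per3 had the widest contrast, −0.93 in high-fat and 0.59 in low-fat mice, and did not pass (adjusted permutation p = 0.132). By rank correlation 0 of 45 pairs differed, and over the 20 fits without 1 mouse the adjusted p of Arntl with Cry1 ranged from 0.0144 to 0.165. It was above the threshold without any one of high-fat mice 2, 5, 7 and 10 or low-fat mice 1 and 2, while Per3 with Cry1 kept its call in 5 of the 20 fits.

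Array-level measures gave values beside this pattern. Over the 10 high-fat mice the array median had r = −0.04 with Arntl (rho = 0.32, permutation p = 0.933 and 0.365). Without the 2 mice with the farthest array medians it was 0.75, and that of Per3 was −0.71 (exact permutation p = 0.0344 and 0.0496, n = 8, unadjusted). The mean over 24 poly-A spike-in controls had r = 0.13 with Arntl (rho = 0.12, permutation p = 0.722 and 0.757). In low-fat mice the array median had r = 0.69 with Arntl (rho = 0.27, permutation p = 0.0287 and 0.447). The mean standardised value of all probe sets had r = 0.68 with Arntl in low-fat mice (rho = 0.81, permutation p = 0.0339 and 0.0073, unadjusted) and −0.14 in high-fat mice (rho = 0.07, permutation p = 0.707 and 0.865). None of the 18 relations of 3 such measures with Arntl, Per3 and Nr1d2 passed adjustment for r, and the smallest adjusted permutation p was 0.296. Their part in the correlations was not tested.

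The output arm was described from lists of related genes. Of 24 probe sets for 9 other clock transcription factors, 0 passed for diet. The smallest p was that of Nfil3 (1418932_at), the repressor at D-boxes, at −1.54 (−2.54 to −0.52, adjusted p = 0.0718 by limma). It passed under the 3 other scalings (−2.51, −1.76 and −1.56, adjusted p = 0.0027, 0.0153 and 0.0138) and without high-fat mouse 3 (−2.17, adjusted p = 0.0155). That was the 1 call in the 20 fits without 1 mouse. Over the 10 other settings, which kept all mice, the adjusted p ran from 0.0027 to 0.155. Quantile normalisation and median centring also lowered the median of all probe sets, to −0.41 and −1.29. Nfil3 ran from −3.23 through −1.66 to 0.83 SD units in high-fat mice and from −1.38 through 0.12 to 0.80 in low-fat mice. Dbp, the D-box activator and a direct target of the BMAL1 complex, is named here after its values were seen. Its diet difference was 0.30 (adjusted p = 0.807), yet within high-fat mice it was nearly the mirror image of Arntl. It ran from −1.34 in mouse 8, which had the highest Arntl, to 2.70 in mouse 10, which had the lowest.

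The correlation of Dbp with Arntl was r = −0.98 in high-fat mice (rho = −0.98, permutation p = 1e-05, the smallest that 100000 resamples can give, and adjusted p = 0.00018 over 18 relations). In low-fat mice it was −0.18 (rho = 0.04, permutation p = 0.627 and adjusted p = 0.868). Without the 2 farthest high-fat mice it was −0.96 (exact permutation p = 9.92e-05). These values rest on 1 probe set of each gene, for Dbp 1438211_s_at. The relation was not computed for the other Dbp probe set, 1418174_at, under other scalings or with averaged probe sets. The D-box activator gene Tef had r = −0.81 with Arntl in high-fat mice (rho = −0.72, permutation p = 0.0068 and 0.0233, adjusted p = 0.0609) and 0.09 in low-fat mice (rho = 0.03, permutation p = 0.797 and 0.946). For Tef, r was −0.58 without the 2 farthest high-fat mice (exact permutation p = 0.127). In low-fat mice 3 other factors passed by rank and not by r: Ciart, a repressor of the BMAL1 complex, had rho = −0.85 with Arntl (r = −0.72, adjusted permutation p = 0.0276 for rho and 0.0949 for r), the receptor gene Rorb −0.83 (r = −0.62, adjusted permutation p = 0.0276 and 0.128) and the repressor gene Bhlhe41 −0.79 (r = −0.70, adjusted permutation p = 0.0413 and 0.0949). In high-fat mice these were −0.49, −0.37 and −0.26 by rank, and none passed. The mean scores of Rorb and Bhlhe41 were 6.72 and 6.56, near the median of 6.57 over all probe sets, and that of Ciart was 7.59. Without the 2 low-fat mice farthest from the median of Arntl, the low-fat r was −0.30 for Ciart, −0.56 for Rorb and −0.73 for Bhlhe41 (exact permutation p = 0.500, 0.157 and 0.0398, unadjusted). Whether the correlations of these factors differed between diets was not tested.

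**Figure D4:**
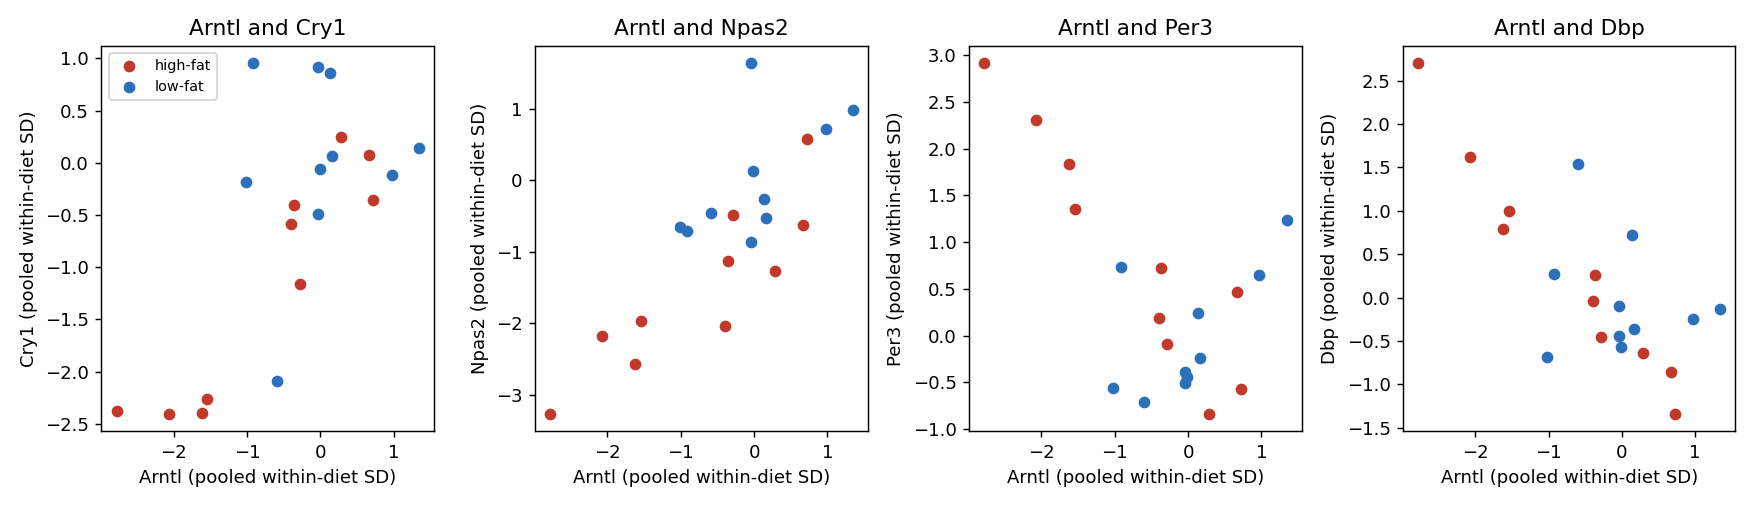
Values of Cry1, Npas2, Per3 and Dbp (y axes) against Arntl (x axes) in each mouse, all in pooled within-diet SDs from the low-fat mean, with high-fat mice in red and low-fat mice in blue (n = 10 each). The red points run along a slope in every panel, with r of 0.92, 0.88, −0.93 and −0.98.

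Of the genes whose products modify or degrade clock proteins, 1 of 34 probe sets passed, a share near the 2.32% of all probe sets, and it was lower in high-fat mice. It was 1457305_at of Btrc, a subunit of the ligase that tags PER for degradation, at −1.74 (−2.77 to −0.68, adjusted p = 0.0472 by limma). The other 4 Btrc probe sets ranged from −0.49 to 0.92, and the call was kept in 5 of the 20 fits without 1 mouse. Of clock-controlled liver genes 0 of 18 probe sets passed, and the smallest p was that of Coq10b (1460510_a_at), a mitochondrial coenzyme Q protein, at 1.25 (0.27 to 2.21, adjusted p = 0.153). Of glucocorticoid-responsive genes 0 of 32 passed, and the smallest p was that of 1 probe set of the transcription factor Klf9 (1436952_at) at 1.43 (0.42 to 2.41, adjusted p = 0.0961). Of immediate early genes 0 of 11 passed. Fos (1423100_at) had the smallest p, at 1.25 (0.27 to 2.20, adjusted p = 0.154). By representative probe set, 8 of 9 genes on that list had positive differences, with a median of 0.69. Of the genes whose products modify or degrade clock proteins, 8 of 9 were positive as well, with a median of 0.18. Over all probe sets 52.2% had a positive difference, and the median was 0.04.

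Genes whose pattern over the 20 mice was most like that of a clock gene were found after subtraction of each diet's mean, among 16303 genes, as a description. Nearest to Arntl were Asap2 (r = 0.85), Clec14a (0.84), Polr3c (0.82), Slc30a10 (0.82) and Nelfa (0.82), and most opposite were Fbf1 (−0.82), Maff (−0.82) and Ttll5 (−0.81). For Asap2 the r was 0.91 within high-fat and 0.76 within low-fat mice, from the same values that ranked it first. Nearest to Nr1d1 were Abcc2 (0.77), which encodes the exporter of bilirubin conjugates into bile, Ndrg1 (0.72), Gng4 (0.71), Gng7 (0.69) and Arvcf (0.67), and most opposite Fam83h (−0.76), Scoc (−0.74) and Plekhg6 (−0.73). Nearest to Per1 were Trp53inp1 (0.87), Slc25a32 (0.86), Tob2 (0.86), the tyrosine aminotransferase gene Tat (0.85) and Slc25a51 (0.85), and most opposite Pdcd4 (−0.86), Septin11 (−0.82) and Slc66a2 (−0.82). Tat, a classical glucocorticoid-induced liver gene, had r = 0.90 with Per1 within high-fat and 0.62 within low-fat mice. The other genes nearest to Per1 had r from 0.89 to 0.96 within high-fat and from 0.57 to 0.80 within low-fat mice. All of them were picked on these same values. For the other glucocorticoid-responsive genes r with Per1 is not given here, and a part of glucocorticoids was not tested.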

How the data were processed

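RNA from 20 livers was measured on 3′-end Affymetrix arrays, 1 array per mouse, per the labels' protocols. The deposited table holds 1 score per probe set and array. How the authors made this score from the probes is not stated in the labels. Score levels run from 5.18 to 15.0 as log2 intensities would, but 98.2% of probe sets had an SD below 0.001 over the 20 arrays. Scores were used as deposited, and sizes are standardised differences with 95% noncentral t intervals. Both assume that a probe set's score rises with its transcript, which was not tested. The number of arrays limits the precision. The 64 controls were left out and no filter on low values was used. Names come from the platform annotation: 34945 probe sets had 1 symbol, 932 several and 9160 are unnamed here. A gene was represented by its probe set with the highest mean. Chromosomes come from RefSeq's GRCm38.p6 table, where all 10 members matched.

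The diet fit ran in R 4.3.3 over all 45037 probe sets with limma 3.58.1, a linear model moderated by eBayes with diet as its single term, and two-sided p-values were adjusted by Benjamini-Hochberg and called below 0.05. The eBayes prior carried 0.778 degrees of freedom, a weak sharing of variance that still lowers the statistic of probe sets with very small SDs. Correlations used Python 3.11.15 and numpy 2.4.6. Named genes were all members, the gene with the smallest p or past the threshold in each related list, and for Arntl, Nr1d1 and Per1 the 5 most alike and 3 most opposite genes. The members and lists were chosen with earlier results of these data known. The test of a difference in correlation, the array-level relations, the relations of other factors with Arntl and the mice above the Arntl gap were added after seeing the data. The fit was run on simulated independent normal values. A check of the correlation statistic used simulated sets smaller than 10 mice and a part of the exact permutations. It therefore does not cover the correlation test as used here. Mice with the same replicate number were not treated as pairs, since nothing in the labels ties them and the correlation of their deviations ran from −0.146 to 0.230, above 0.1 in 2 of 10. The maple syrup extract groups of the design text are not analysed here.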

Additional observations from a re-analysis of the deposited data

Results flagged for a closer look

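In 3 of 20 groups (the representative probe sets of the 10 genes in each diet), a single mouse lay far from the other 9, and chance alone flags about 1 in 20 groups. Clock (1418659_at) in low-fat mouse 9 was at −2.46 SD units, with a gap to the next mouse of 0.542 of the low-fat range. Cry1 in low-fat mouse 8 was at −2.09, with a gap of 0.525 of the range. Nr1d1 in low-fat mouse 8 was at 3.16, with a gap of 0.625 of the range. Low-fat mouse 8 thus had the lowest Cry1 and the highest Nr1d1 of its diet.

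The correlation of 2 pairs differed between the diets by the permutation of diet labels. For Arntl with Cry1 the r in high-fat mice minus that in low-fat mice was 0.80, and for Per3 with Cry1 it was −1.29. Both calls were lost by rank correlation.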

How the results depend on the processing

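Directions of the 10 clock genes were recomputed in 327 combinations of gene and setting: 297 gave the same direction and side of the threshold, 9 brought a gene past it and 21 turned the direction. Arntl, Npas2, Nr1d1, Nr1d2, Per3 and Cry1 kept their sign in all of them. Clock turned to −0.738 under quantile normalisation, −0.627 with array medians centred, −0.0717 with array weights and −1.07 for the mean of its probe sets, and ran from −0.277 to 0.321 without 1 mouse. Per2 turned to −0.0806 and −0.406 under quantile normalisation and with array medians centred, and without 1 mouse it ran from −0.0125 to 0.413 and Per1 from −0.0182 to 0.616. Cry2 turned to 0.715 under quantile normalisation and 0.0428 with array weights, and ran from −0.381 to 0.123 without 1 mouse. Scalings between arrays moved the median standardised difference of all probe sets to −0.41 (quantile) and −1.29 (array medians), so directions there are relative to that shift. They called 4147 probe sets (375 higher, 3772 lower), 38616 (396 higher, 38220 lower) and, with standardised values centred, 2516. Of the clock probe sets 4, 14 and 1 were called, and of the clock genes 3, 4 and 1. Over all probe sets 627 were called without suffixed probe sets, 635 with 1 probe set per gene, both with fewer features tested, and 768 to 1124 without 1 mouse. Without 1 mouse, 0 to 1 clock probe sets and 0 to 1 clock genes were called. With the replicate block 538 of all probe sets and 0 of the clock probe sets were called. The labels state no pairing by number, and 1 of 10 high-fat mice correlated best with its own number. These values cannot tell whether the numbers carry a pairing.

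The 7 pairs called in high-fat mice became 3 with the probe set of largest SD, 0 when each gene's probe sets were averaged, 0 under quantile normalisation, 0 without the 2 farthest mice (n = 8) and 0 to 9 without 1 mouse. Under quantile normalisation Npas2 with Nr1d2 had r = 0.197 and Per2 with Cry2 0.0358. In low-fat mice 0 to 1 pairs were called without 1 mouse. The setting with the largest SD changed the probe set of Per2 and Per3 alone, so it did not check pairs without these genes. The 2 pairs that differed between diets became 0 by rank, 1 with the probe set of largest SD, 0 for the mean of probe sets and 0 to 3 without 1 mouse. The cause of these changes was not tested.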
